A study of Mus musculus with 6 samples.

Results

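The genes described here are 10 mouse genes of cytokine signaling: the SOCS genes Socs1, Socs2, Socs3 and Cish, the PIM kinase genes Pim1, Pim2 and Pim3, and the transcription factor genes Stat3, Stat5a and Stat5b. They were listed by family and pathway out of 24965 genes in the deposited table, and the list was selected on values of the same Hemgn-/- and WT libraries that are compared below. Differences between the genotypes for these 10 genes are therefore given as a description. They entered the fit over all genes, but no p-value is given for any of them, and the number called is set beside the share of all genes called without support being drawn from it. All 10 were found in the table, and 9 of them had an FPKM (fragments scaled by transcript length and by the size of the library) above 1 in at least 1 library.

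The RNA came from donor bone marrow cells that had been injected into recipient mice and were taken back 6 h later, a setting in which transplanted hematopoietic stem and progenitor cells (HSPCs) have just reached the marrow of an irradiated host. The WT group and the Hemgn-/- group each held 3 libraries. Donors were C57BL/6 mice carrying CD45.2, 8 to 10 weeks old in the study's methods, either WT or with Hemgn disrupted in the whole animal by zinc finger nucleases, and recipients were CD45.1 mice that had received 9 Gy in a split dose of 4.5 Gy and 4.5 Gy. No other allele or agent is named for either group, and the study's methods call the 3 libraries of a group biological replicates, without saying in the sources used here whether each came from its own donor or recipient. The labels name CD45.2+ lineage-negative Sca-1+ cells, while the series' design text adds c-Kit, and the sources also differ on the library kit.

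Cytokine receptors without a kinase of their own signal through JAK kinases, which phosphorylate STAT proteins, and STAT dimers enter the nucleus and bind DNA. SOCS genes are switched on by STATs, and their proteins bind receptors or JAKs through an SH2 domain, recruit a ubiquitin ligase through the SOCS box and so close a feedback loop. PIM kinases are serine/threonine kinases that are active once made, so that their amount is set largely by transcription, and they favor survival and growth of blood cells downstream of STAT3 and STAT5.

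Before the genes are described, the sorted population has to be set beside its markers. Transcripts of the neutrophil lineage were by far the most abundant markers in all 6 libraries, with a summed FPKM over 11 genes of 75897 to 81917 in WT and 50076 to 55465 in Hemgn-/- libraries, led by the granule gene Ngp at 43176 to 46692 and 26488 to 27961. The 11 HSPC markers summed to only 36.9 to 42.6 and 44.5 to 53.6. None of them was listed at 0 in any library, but Mecom lay between 0.0029 and 0.415 FPKM and Kit, which encodes c-Kit, between 5.50 and 7.24, while the highest, Ly6a (Sca-1), reached 17.3. B cell markers, led by Cd79b, summed to 1160 to 1221 in WT and to 1380 to 1554 in Hemgn-/- libraries, and erythroid markers, led by Hba-a1, to 459 to 549 and 30.1 to 49.9. The globin gene Hba-a2 was listed at 0 in Hemgn-/- libraries 2 and 3 and Epb42 in Hemgn-/- library 2. By limma's test with adjustment over all genes, 5 of 11 neutrophil, 5 of 8 tested erythroid and 3 of 7 eosinophil and basophil markers were lower in Hemgn-/- libraries, and 3 of 7 B cell, 2 of 8 T and NK cell, 2 of 7 plasmacytoid dendritic cell and 1 of 10 tested HSPC markers were higher, while macrophage markers had 2 of 9 higher and 2 lower. Endothelial markers had 0 of 5 tested genes called, with 1 higher and 1 lower at an unadjusted p under 0.05 and 1 lower by voom. Summed FPKM of the other lists, in the same order of groups, came for macrophage markers (led by Cd68) to 176 to 182 and 156 to 165, for T and NK cell markers (led by Nkg7) to 131 to 142 and 150 to 171, for plasmacytoid dendritic cell markers (led by Ly6d) to 147 to 175 and 165 to 201, for eosinophil and basophil markers (led by Prss34) to 711 to 822 and 554 to 579, and for endothelial markers (led by Pecam1) to 16.5 to 17.5 and 18.0 to 21.2. The libraries thus carried transcripts of cell types that a lineage-negative gate is meant to remove, and they are called donor cells below. In such bulk samples fewer cells of a type and less RNA per cell cannot be told apart, and the part of these marker differences in the values below was not tested. Hemgn itself was at 5.64, 2.96 and 4.68 FPKM in WT and at 0.755, 0.913 and 1.60 FPKM in Hemgn-/- libraries 1, 2 and 3, with all Hemgn-/- values below all WT values.

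**Figure D1:**
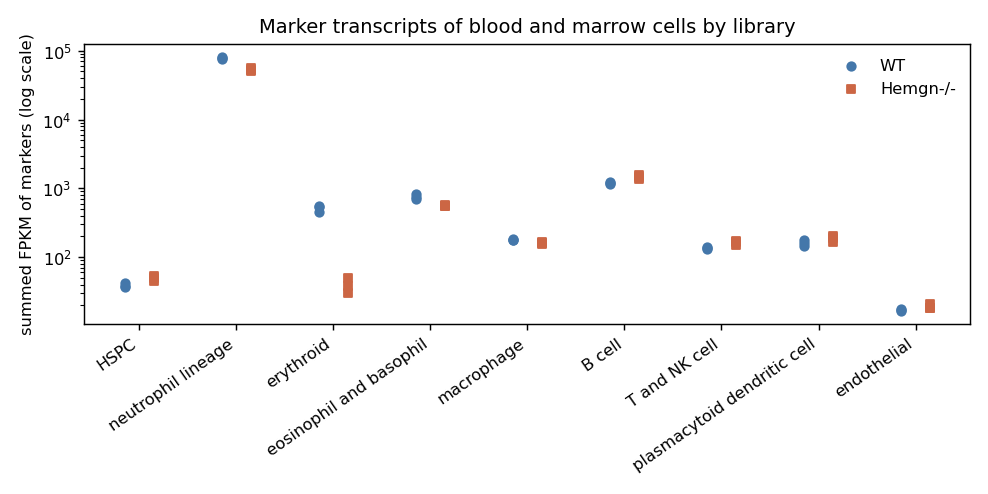
Summed FPKM (log scale) of each marker list, with 1 point per library, circles for WT and squares for Hemgn-/- donor cells. Neutrophil lineage transcripts summed to at least 50076 in every library, HSPC markers stayed between 36.9 and 53.6, and erythroid markers lay at 459 to 549 in WT and 30.1 to 49.9 in Hemgn-/- libraries.

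STAT dimers bind the palindrome TTCNNNGAA, the GAS element, and stretches of 2 GAAA blocks (GAAANNGAAA, a core of the interferon-stimulated response element, ISRE) are bound by interferon regulatory factors and by STAT complexes that contain one. These letters were sought in windows of 250 bases before to 50 bases after the start sites that RefSeq gives on GRCm38.p6, and 9 of the 10 genes had such a window (12 windows in all, none for Socs2). The stretches below show the matches near the start sites of the SOCS genes, with matches in capitals, and for contrast a stretch of the first of the 2 windows of Pim1, the gene with the largest difference between genotypes. Neither window of Pim1 held a match. Each is given 5′ to 3′ on the strand of its gene.
Socs3 (chr11:117969457-117969556, minus strand, 190 to 91 bases before the start, GAS in capitals): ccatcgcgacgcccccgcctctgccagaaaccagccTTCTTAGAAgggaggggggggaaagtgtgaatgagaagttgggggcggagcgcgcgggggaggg
Cish (chr9:107296654-107296683, plus strand, around the start, GAS in capitals): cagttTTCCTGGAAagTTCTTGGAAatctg
Socs1 (chr16:10785567-10785666, minus strand, 130 to 31 bases before the start, overlapping ISRE cores in capitals): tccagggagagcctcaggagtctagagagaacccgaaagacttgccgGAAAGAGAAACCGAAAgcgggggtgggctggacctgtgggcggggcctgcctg
Pim1 (chr17:29490645-29490744, plus strand, 140 to 41 bases before the start, no match): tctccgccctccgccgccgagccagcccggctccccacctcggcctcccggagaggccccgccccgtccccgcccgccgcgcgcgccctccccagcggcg
The GAS letters stood in 2 of the 12 windows, those of Socs3 (first base 154 bases before the start) and Cish (at the start and 11 bases after it), against 8.30% of 32851 windows of the same length. For Socs3 and Cish these RefSeq starts and the matches lie inside the gene spans given below. Those spans are from GENCODE M21 and begin further upstream. The ISRE core, sought on both strands, stood in 1 of the 12, that of Socs1, as a pair of overlapping matches within 16 bases, against 3.44% of windows. The GAS letters read the same on both strands apart from the open middle. A match in these letters is a description of the window, and a window without one says nothing of more distant sites.

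At the level of the whole list, all 9 genes above the FPKM limit had a higher mean in Hemgn-/- than in WT donor cells. Pim1 stood out with a 3.39-fold higher mean FPKM, followed by Socs3 with 1.79-fold, the low gene Cish with 1.5-fold, Stat5a with 1.41-fold and Pim2 with 1.4-fold. In 7 of the 9 every Hemgn-/- library lay above every WT library (Socs1, Socs3, Cish, Pim1, Pim2, Pim3 and Stat5a), where 19.2% of all 13739 genes tested showed the same. Overlap was counted on the deposited FPKM only. Median-ratio scaling brought the log2 difference of Socs1 from 0.24 to 0.14 and that of Pim3 from 0.18 to 0.08, and overlap was not counted after it. By limma on log2(FPKM + 1) with Benjamini-Hochberg adjustment, 3 of the 9 passed an adjusted p of 0.05 and were higher (Pim1, Socs3 and Pim2), beside 4.37% of all genes tested, and none was lower, beside 2.09%. None of the 9 had a negative difference, so none was lower at an unadjusted p under 0.05 or by voom either. These shares are given as background only, because the list was chosen with this contrast in view. The median log2 difference of the 9 genes was 0.40, and that of all genes tested was 0.09, with a 5th to 95th percentile from -0.49 to 0.59 and 63.0% of genes above 0. Among all genes called, 67.6% were higher in Hemgn-/- libraries, a split that changed to 46.9% after median-ratio scaling and to 81.7% after scaling to the same FPKM total.

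**Figure D2:**
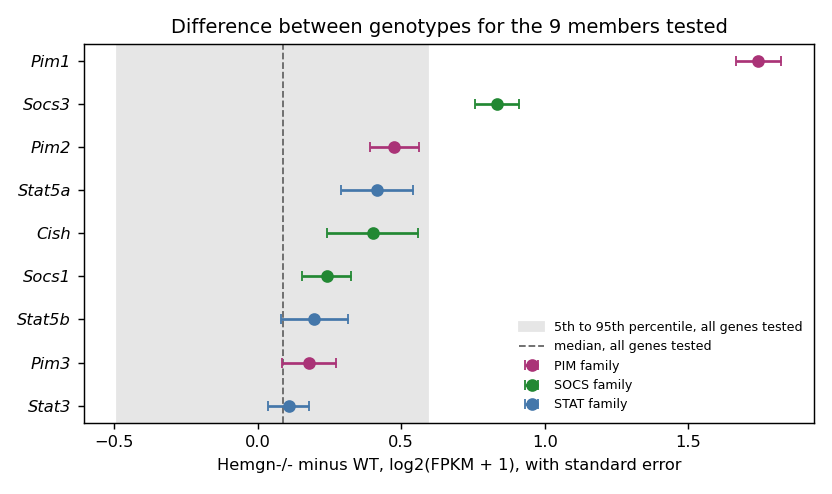
Difference between Hemgn-/- and WT donor cells in log2(FPKM + 1), with its standard error from limma (n = 3 libraries a group), for the 9 genes tested, colored by family. The gray band spans the 5th to 95th percentile of all genes tested and the dashed line their median (0.09); Pim1 (1.74) and Socs3 (0.83) lay beyond the band and the other 7 within it.

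Among the STAT genes Stat3, which carries signals of the IL-6 family, IL-10, G-CSF and others, was the most abundant and the least different. Stat3 (ENSMUSG00000004040, chr11:100885098-100939540, minus strand) was at 54.4, 55.5 and 57.0 FPKM in WT and at 61.6, 56.8 and 61.8 FPKM in Hemgn-/- libraries. The second Hemgn-/- library lay inside the WT range, and the log2 difference of 0.11 (SE 0.071) was close to that of the median gene and came down to 0.01 after median-ratio scaling. Stat5a (ENSMUSG00000004043, chr11:100859351-100885169, plus strand), a mediator of IL-2, IL-3, GM-CSF and thrombopoietin signals, was at 4.42, 4.72 and 3.75 FPKM in WT and 5.61, 5.89 and 6.66 FPKM in Hemgn-/- libraries. Its groups did not overlap and its log2 difference was 0.41 (SE 0.13). Stat5b (ENSMUSG00000020919, chr11:100780731-100850724, minus strand), its close paralog and neighbor, was at 9.96, 11.9 and 10.9 FPKM and at 11.5, 12.2 and 14.4 FPKM. Here the lowest Hemgn-/- library lay below the highest WT library, with a log2 difference of 0.20 (SE 0.12). The ratio of Stat5a to Stat5b FPKM was 0.345 to 0.444 in WT and 0.461 to 0.489 in Hemgn-/- libraries, so Stat5b was the more abundant paralog in all 6. The pair is so alike that 5.12% of the 75-base windows of Stat5a transcripts also occur in Stat5b, and fragments from these stretches may have been split or dropped. Stat3 and Stat5a lie tail to tail on opposite strands and share 72 exonic bases, and the strand setting of the counting is not given in the sources used here. Stat3 made up 77.0 to 79.6% of the summed STAT3 and STAT5 FPKM in WT and 74.6 to 78.3% in Hemgn-/- libraries.

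Of the SOCS genes, Socs3 showed the largest difference. Its protein acts on gp130 and the G-CSF receptor and thereby limits STAT3. Socs3 (ENSMUSG00000053113, chr11:117966079-117970047, minus strand) was at 74.3, 67.0 and 64.2 FPKM in WT (68.5 ± 5.22, SD, n = 3) and at 121, 128 and 119 FPKM in Hemgn-/- libraries (123 ± 4.59, SD, n = 3). The lowest Hemgn-/- library thus lay well above the highest WT library, and the log2 difference was 0.83 (SE 0.076), the 243rd highest of the 13739 genes tested. Over the 14 alternative settings this difference ranged from 0.73 to 0.92.

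Socs1, which blocks JAK kinases directly and is a main brake on interferon gamma signaling, differed by less. Socs1 (ENSMUSG00000038037, chr16:10782240-10785536, minus strand) was at 42.7, 37.3 and 38.2 FPKM in WT (39.4 ± 2.91, SD, n = 3) and at 44.4, 49.9 and 45.9 FPKM in Hemgn-/- libraries (46.7 ± 2.82, SD, n = 3). The groups did not overlap, but WT library 1 and Hemgn-/- library 1 were close to each other, and the log2 difference was 0.24 (SE 0.085). The ratio of Socs3 to Socs1 FPKM was 1.68 to 1.79 in WT and 2.57 to 2.73 in Hemgn-/- libraries, with no overlap.

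Cish, the founding SOCS family gene and a target of STAT5, was low in every library. Cish (ENSMUSG00000032578, chr9:107296026-107302784, plus strand) was at 1.86, 2.14 and 1.73 FPKM in WT and at 2.36, 3.4 and 2.82 FPKM in Hemgn-/- libraries, from 283 to 572 fragments a library. Every Hemgn-/- library lay above every WT library, with a log2 difference of 0.40 (SE 0.16). Its spread within the Hemgn-/- group, a coefficient of variation of 18.4%, was the widest of the 9 genes. Exons of Gm17041 and Gm17040 cover 479 and 261 bases of the Cish exons from the other strand, and without a stated strand setting such reads cannot be told apart.

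Socs2, the SOCS gene best known as a brake on growth hormone signaling, was near the floor. Socs2 (ENSMUSG00000020027, chr10:95385362-95417180, minus strand) was at 0.590, 0.287 and 0.473 FPKM in WT and at 0.482, 0.269 and 0.439 FPKM in Hemgn-/- libraries, from 67 to 133 fragments. The groups overlapped, and the gene did not enter the fit. Together the SOCS genes summed to 105 to 120 FPKM in WT and to 168 to 181 FPKM in Hemgn-/- libraries, and the share of Socs3 in this sum was 61.4 to 62.8% and 70.5 to 72.0%.

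The PIM genes held the largest difference of the list. Pim1 (ENSMUSG00000024014, chr17:29490753-29496112, plus strand) was at 46.4, 52.1 and 43.6 FPKM in WT (47.4 ± 4.30, SD, n = 3) and at 159, 159 and 164 FPKM in Hemgn-/- libraries (161 ± 3.00, SD, n = 3). The lowest Hemgn-/- library was at 159 and the highest WT library at 52.1 FPKM, a gap far wider than the range within either group. Its log2 difference of 1.74 (SE 0.079) was the 21st highest of the 13739 genes tested and ranged from 1.64 to 1.83 over the alternative settings. The antisense gene Gm26885 covers 488 bases (14.5%) of the Pim1 exons and was at no more than 0.116 FPKM in any library.

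Pim2, which like Pim1 supports survival and protein synthesis, differed by a smaller step. Pim2 (ENSMUSG00000031155, chrX:7878262-7883432, plus strand) was at 41.3, 43.0 and 37.0 FPKM in WT (40.4 ± 3.10, SD, n = 3) and at 56.9, 59.2 and 53.6 FPKM in Hemgn-/- libraries (56.6 ± 2.84, SD, n = 3). Its groups were separated by more than the range within either, with a log2 difference of 0.48 (SE 0.084). Without Hemgn-/- library 2 the log2 difference was 0.44 and Pim2 was no longer among the genes called, as was the case with all libraries when the mean-variance trend was left out.

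Pim3 (ENSMUSG00000035828, chr15:88862186-88865726, plus strand), the third kinase of the family, was at 19.5, 18.6 and 20.2 FPKM in WT and at 21.6, 24.4 and 20.5 FPKM in Hemgn-/- libraries. The highest WT and the lowest Hemgn-/- values almost met, and the log2 difference was 0.18 (SE 0.094). In WT libraries the PIM genes summed to 101 to 114 FPKM and Pim1 made up 43.3 to 45.8% of the sum, whereas in Hemgn-/- libraries they summed to 237 to 243 FPKM and Pim1 made up 65.6 to 68.9%. The ratio of Pim1 to Pim2 FPKM accordingly was 1.12 to 1.21 in WT and 2.69 to 3.06 in Hemgn-/- libraries.

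**Figure D3:**
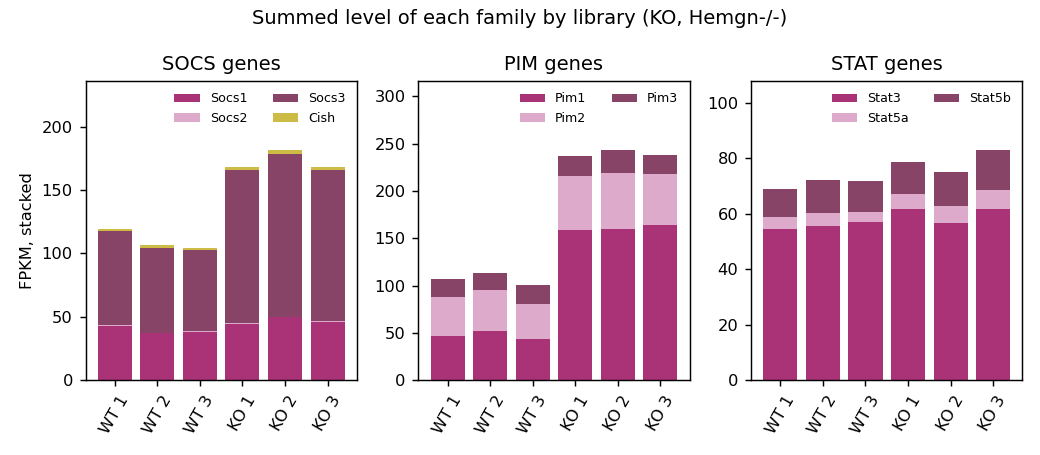
FPKM of the SOCS genes, the PIM genes and Stat3, Stat5a and Stat5b, stacked within each of the 3 WT and 3 Hemgn-/- (KO) libraries, on axes that start at 0 and differ between panels. The PIM sum was 101 to 114 in WT and 237 to 243 in Hemgn-/- libraries, mostly through Pim1, and the SOCS sum 105 to 120 and 168 to 181, mostly through Socs3.

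FPKM is per length of the annotated exons of a gene, so the genes can also be ordered by FPKM. This order depends on those lengths, which were 9527 bases for Stat3, 3362 for Pim1 and 2891 for Socs3. In WT library 1 the fragments numbered 12260 for Stat3, 5086 for Socs3 and 3692 for Pim1. Which of the annotated exons were in use was not tested. By FPKM the order of the highest differed between the genotypes. In WT the highest means were those of Socs3 (68.5), Stat3 (55.6) and Pim1 (47.4 FPKM), and Pim1 lay below both of the others in every WT library. In Hemgn-/- libraries they were those of Pim1 (161), Socs3 (123) and Stat3 (60.1 FPKM), and Pim1 lay above both in every library. Pooled over all 6 libraries the mean FPKM was 104 for Pim1, 95.6 for Socs3, 57.8 for Stat3, 48.5 for Pim2, 43.1 for Socs1, 20.8 for Pim3, 11.8 for Stat5b, 5.17 for Stat5a, 2.39 for Cish and 0.423 for Socs2. For 6 of the 9 pairs of neighbors in this order the difference had the same sign in all 6 libraries (two-sided exact sign-flip permutation test over libraries, p = 0.03125, the smallest it can give, and 0.0469 after Benjamini-Hochberg adjustment over the 9 pairs). The pairs were taken from the order of means in these same libraries, so each p only describes how steady the order was and is no independent support for it. The other 3 pairs did not pass this pooled test, which treats the spread between the genotypes as error. Stat3 was above Pim2 in 5 of 6 libraries (exact p = 0.0625, adjusted 0.0804) and Pim2 above Socs1 in 4 of 6 (exact p = 0.125, adjusted 0.141). Pim1 was above Socs3 in 3 of 6 (exact p = 0.75): Socs3 was the higher in each WT library and Pim1 in each Hemgn-/- library. Set against all genes tested, the mean level of Pim1 exceeded 96.9% of them and that of Cish 35.6%.

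**Figure D4:**
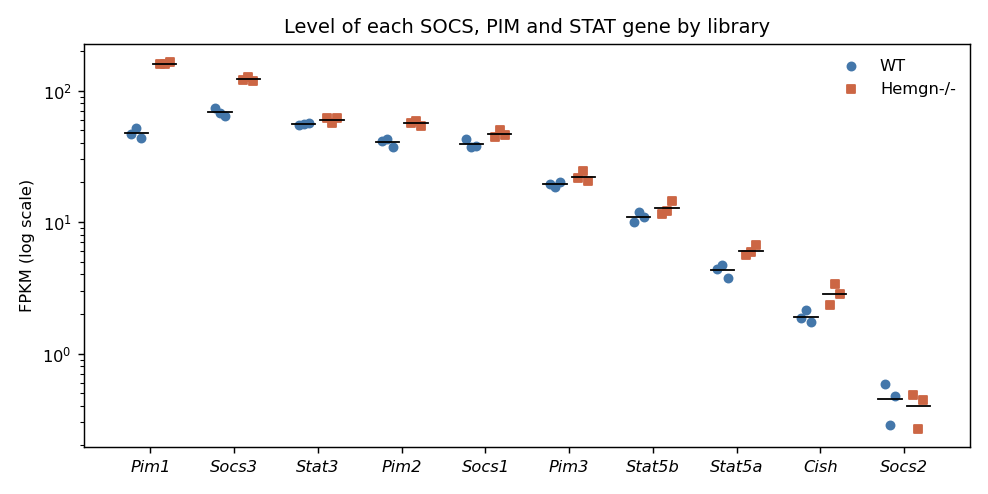
FPKM (log scale) of the 10 genes in each library, ordered by their mean over all 6 libraries, with circles for WT, squares for Hemgn-/- and a line for the mean of each group (n = 3). Socs3 (68.5) and Stat3 (55.6) had the highest means in WT, Pim1 (161) and Socs3 (123) in Hemgn-/- libraries, and Socs2 the lowest in both.

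The genes whose log2(FPKM + 1) followed these genes most closely across the 6 libraries were sought among genes with a mean of at least 5 FPKM. Pearson's r is given as a description, since it is over 6 libraries in 2 groups and a gene that differs between the genotypes correlates with any other that does. Closest to Pim1 were Fcer2a (r = 0.999), Gm12250 (0.998) and Il21r (0.998), with mean FPKM of 79.7 and 158, 25.1 and 70.8, and 31.7 and 48.0 in WT and Hemgn-/- libraries. Closest to Socs3 were Nfkbiz (r = 0.999), Gdap10 (0.999) and Gbp2 (0.998), with means of 90.2 and 147, 42.6 and 56.2, and 28.2 and 61.4. Socs1 was followed by Lamtor3, 1110059E24Rik and Aim2 (r = 0.993 to 0.994), Cish by Adam15, Atg4c and Ass1 (0.994 to 0.996), Stat3 by Actr8, Dpysl2 and Med20 (0.990 to 0.993) and Socs2 by Map1lc3b, Acaa2 and Uchl5 (0.966 to 0.987). No gene was named for more than 1 of these 6 genes.

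The question of whether the genes around them differed as well was addressed with 10 lists of receptors, kinases, regulators and targets, 117 genes in all. The lists were drawn up with earlier results of these data known, so their counts are no independent evidence of a direction. Of 99 genes tested, 17 were higher in Hemgn-/- donor cells (17.2%, beside 4.37% of all genes tested) and 2 lower (2.02%, beside 2.09%). The share called lower was thus close to that of all genes. The median log2 difference was 0.20, and 42 of the 99 genes had all Hemgn-/- above all WT values, a larger share than the 19.2% of all genes tested. In all that follows the adjusted p is from limma with Benjamini-Hochberg adjustment over the 13739 genes. Summed B cell markers were higher and summed neutrophil markers lower in the same Hemgn-/- libraries, by the values given above. Not every marker followed its sum. Of the neutrophil markers Mmp8 and Retnlg were not lower (log2 differences 0.0065 and 0.10). Of the B cell markers Ebf1 and Vpreb1 were not higher (-0.04 and -0.39, neither called). The part of these marker differences in the differences of the lists was not tested.

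The list drawn up for receptors coupled to STAT3 and STAT5 had 5 of 22 tested genes higher and none lower, with a median log2 difference of 0.32. Il4ra was among the 5, although Stat6 carries IL-4 signals, so the count is not limited to receptors of STAT3 and STAT5. At an unadjusted p under 0.05 the list had 1 lower gene, and by voom also 1. Il3ra, the IL-3 receptor alpha chain, rose from 3.47 ± 0.659 to 5.77 ± 0.361 FPKM (SD, n = 3), a log2 difference of 0.61 (adjusted p = 0.0382). Il21r, which lymphocytes use to activate STAT3, rose from 31.7 ± 1.07 to 48.0 ± 1.19 FPKM (0.59, adjusted p = 0.0029). Csf2rb, the beta chain shared by the IL-3, IL-5 and GM-CSF receptors, rose from 85.2 ± 7.58 to 116 ± 5.41 FPKM (0.45, adjusted p = 0.0152). The IL-4 receptor gene Il4ra (0.39, adjusted p = 0.021) and the G-CSF receptor gene Csf3r (0.37, adjusted p = 0.0152) completed the 5, and Csf3r was among the most abundant receptors at 181 ± 11.8 and 235 ± 7.23 FPKM. Of the interferon receptors, Ifngr2 rose from 31.2 ± 1.80 to 43.0 ± 2.45 FPKM (0.45, adjusted p = 0.0158) and Ifnar1 from 12.3 ± 1.10 to 17.1 ± 0.868 FPKM (0.45, adjusted p = 0.0332). Ifngr1 was at 175 ± 2.71 and 211 ± 17.5 FPKM (0.26, adjusted p = 0.0757) and Ifnar2 at 22.5 ± 3.45 and 23.9 ± 2.19 FPKM (0.09, adjusted p = 0.703), and neither passed the test. The difference of Ifnar2 turned negative after median-ratio scaling. Among ligands 1 of 8 tested genes was higher: Osm, which encodes oncostatin M, a gp130 cytokine and itself a STAT5 target, rose from 534 ± 37.9 to 714 ± 11.2 FPKM (0.42, adjusted p = 0.0073). No ligand was lower by limma at either threshold or by voom. The other 8 ligands in the table stayed below 1 FPKM in every library, and Il2 and Il5 were listed at 0 in all WT libraries.

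None of the 8 JAK kinases and other STATs passed the test with limma, although 6 were higher at an unadjusted p under 0.05 and 4 were called higher by voom. Tyk2 was at 7.75 ± 0.660 and 11.8 ± 2.22 FPKM (log2 difference 0.53, adjusted p = 0.0641), Jak3 at 9.88 ± 1.49 and 13.9 ± 1.66 FPKM (0.46, adjusted p = 0.0854), Jak1 at 92.3 ± 2.94 and 105 ± 4.14 FPKM (0.19, adjusted p = 0.149) and Jak2 at 5.83 ± 0.222 and 5.31 ± 0.386 FPKM (-0.12, adjusted p = 0.583). Stat6, which carries IL-4 signals, was at 108 ± 4.46 and 130 ± 6.11 FPKM (0.26, adjusted p = 0.0641), Stat2 at 15.3 ± 1.57 and 20.8 ± 4.70 FPKM (0.40, adjusted p = 0.17) and Stat4 at 13.6 ± 2.36 and 15.5 ± 1.45 FPKM (0.19, adjusted p = 0.471). A p that misses the threshold does not show that the genotypes were alike in these genes.

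The remaining SOCS family genes were low and were not called. None of Socs4, Socs5, Socs6 and Socs7 passed the test with limma in either direction, and none did at an unadjusted p under 0.05 or by voom. They lay between 1.22 and 3.59 FPKM in every library, with log2 differences of -0.17 for Socs4, -0.30 for Socs5, 0.01 for Socs6 and -0.14 for Socs7. That of Socs6 changed sign after median-ratio scaling. The list drawn up for the SOCS box ubiquitin ligase and related subunits (Elob, Eloc, Cul5, Rnf7, Cul2 and Rbx1) had 0 of 6 genes called with limma and 0 with voom. Its median log2 difference was -0.11, and 1 gene, Cul2 (0.32), was higher at an unadjusted p under 0.05.

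Other brakes on the pathway included 3 of 14 genes that were higher. Usp18, an interferon-induced protease that damps type I interferon signaling, rose from 13.7 ± 2.02 to 22.6 ± 1.61 FPKM (log2 difference 0.69, adjusted p = 0.0123). The phosphatase genes Ptpn6 (SHP-1; 245 ± 5.01 to 322 ± 15.4 FPKM, 0.39, adjusted p = 0.00737) and Ptprc (CD45; 88.2 ± 0.929 to 109 ± 5.58 FPKM, 0.30, adjusted p = 0.0344) rose as well. None of the 14 was lower by limma at either threshold or by voom.

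Targets of the STATs outside the SOCS and PIM families moved in both directions. Of 13 STAT5 targets none was lower by limma (2 at an unadjusted p under 0.05, 1 by voom) and 4 were higher: the cyclin genes Ccnd1 (5.52 ± 0.533 to 8.78 ± 1.27 FPKM, log2 difference 0.58, adjusted p = 0.0343) and Ccnd2 (20.7 ± 1.70 to 28.4 ± 1.93 FPKM, 0.44, adjusted p = 0.0303), the growth regulator Myc (50.2 ± 3.07 to 70.2 ± 1.78 FPKM, 0.48, adjusted p = 0.00766) and Osm. Of 12 tested STAT3 targets 4 were higher, Icam1 (15.9 ± 2.03 to 26.3 ± 0.425 FPKM, 0.70, adjusted p = 0.00619), Junb (707 ± 34.6 to 864 ± 35.7 FPKM, 0.29, adjusted p = 0.0274), Il4ra and Myc. The adhesion molecule gene Icam1 showed the largest of these differences. Birc5, which encodes survivin and is expressed in dividing cells, was the 1 STAT3 target called lower by limma, and fell from 25.7 ± 1.5 to 13.6 ± 2.71 FPKM (-0.89, adjusted p = 0.0066). The list had 4 lower genes at an unadjusted p under 0.05 and 2 by voom. PIM substrates, whose proteins the kinases phosphorylate, had 2 of 15 genes higher and 1 lower (2 at an unadjusted p under 0.05, 2 by voom), with a median log2 difference of 0.04. Eif4b, a translation initiation factor, rose from 34.8 ± 0.586 to 44.1 ± 0.414 FPKM (0.33, adjusted p = 0.0265) beside Myc, and Cdc25c, a mitotic phosphatase, fell from 5.0 ± 0.704 to 2.25 ± 1.07 FPKM (-0.93, adjusted p = 0.045). The libraries measure transcripts only, and neither phosphorylation of STATs nor PIM activity was measured in them.

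These counts moved with the processing. Of the 17 genes called higher, 2 (Il21r and Icam1) were called under each of the 14 alternative settings, and of the 2 called lower 1 (Birc5) was. Without 1 library the count of higher genes ranged from 5 to 13, and it was 10 without WT library 1, 8 without WT library 3, 10 without Hemgn-/- library 2 and 5 without Hemgn-/- library 3.

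**Figure D5:**
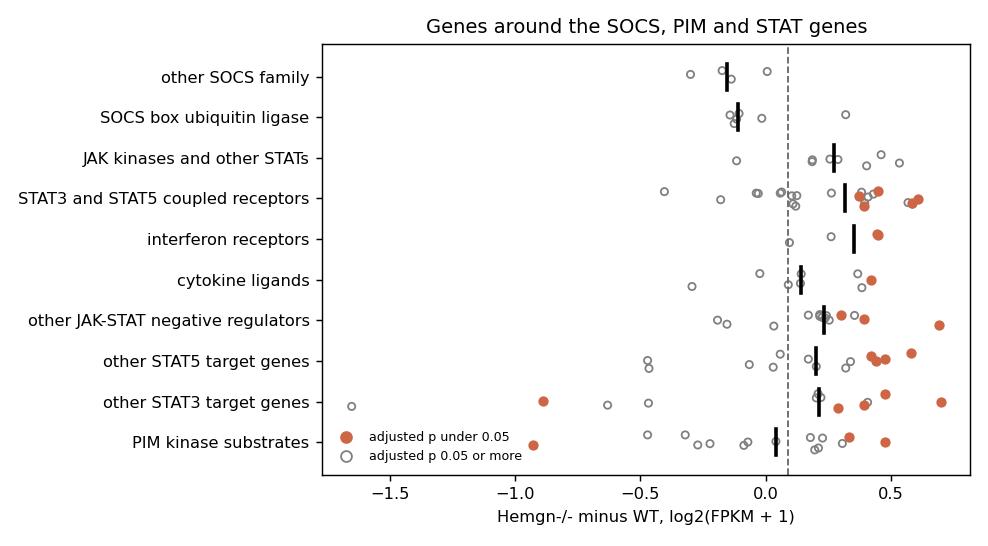
Difference between Hemgn-/- and WT donor cells in log2(FPKM + 1) for each tested gene of the 10 lists, with filled points for an adjusted p under 0.05, black bars for the median of each list and a dashed line for the median of all genes tested (0.09). Filled points lay to the right of 0 except for Birc5 and Cdc25c. The list of other SOCS genes, the SOCS box ligase list and the list of JAK kinases and other STATs held none.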

How the data were processed

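RNA-seq libraries of 3 WT and 3 Hemgn-/- replicates were grouped by the genotype in the labels. The authors deposited FPKM values per gene. The submitters' processing notes name HISAT2 2.1.0, Bowtie2 2.2.3, TopHat2, HTSeq 0.6.0 and GRCm38, without their order. Symbols and exon lengths were taken from GENCODE M21 for 24921 of 24965 genes, and 0 columns were left unmapped. Low FPKM values came in whole steps (95.4% of 13486 genes with at most 100 fragments, within 0.02 fragments), which gave depths of 23667935 to 28897215 fragments (median 25592508 for WT, 27440567 for Hemgn-/-). A single fragment on 1 kb then equals 0.0346 to 0.0423 FPKM, and fragments of amplified cDNA are not independent molecules.

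Genes above 1 FPKM in at least 1 library (13739) were compared as log2(FPKM + 1) with limma 3.58.1 in R 4.3.3 (eBayes with a trend, no covariate, two-sided, Benjamini-Hochberg over all genes), as Hemgn-/- minus WT. This scale understates the change of low genes. In a test on simulated data 155 of 199 genes changed 2-fold and 24 of 12388 unchanged genes were called. The simulation gave every gene the same dispersion, raised as many genes as it lowered and left the rest unshifted. It therefore does not give the error rate of the real contrast, in which the median log2 difference of all genes was 0.09. Levels of neighboring genes were compared with an exact sign-flip test over 6 libraries. Python 3.11.15 with numpy 2.4.6, pandas 2.3.3, scipy 1.17.1 and matplotlib 3.10.9 was used otherwise.

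The members and lists were chosen with earlier results of these data known. Named genes were all 10 members, all tested genes of the other SOCS, JAK and STAT, and interferon receptor lists, at most the 6 largest called genes of each other list, the 3 genes most like 6 of the members, the leading marker and markers at 0 of each marker list, and Hemgn. Kit, Mecom, Il5 and the SOCS box subunits were named after their values were seen. An item that the rule names is not reported here, although it entered the counts. Alternatives were a pseudocount of 0.1, other filters, median-ratio scaling, the same FPKM total, no trend, a replicate block, voom on recovered fragments and leaving out each library.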

Additional observations from a re-analysis of the deposited data

How the results depend on the processing

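The SOCS, PIM and STAT genes were chosen on this contrast, so the counts for them under other settings describe the processing and lend them no support. The count of these genes called higher was 3, and 2 to 3 when each library was left out, where Pim2 was lost without Hemgn-/- replicate 2. It was also 2 with no trend, again through Pim2, and 5 at the same FPKM total, which added Socs1 and Stat5a. The number of neighbor pairs in 1 order in every library was 6 to 7 when each library was left out. These are counts of signs only, because with 5 libraries the sign-flip test can give no p below 0.0625. Of the other pathway genes, 17 were called higher, and 10 with all genes above 0, 8 after median-ratio scaling, 31 at the same FPKM total, 2 with no trend, 27 with voom and 5 to 13 with 1 library left out. The number called lower was 2, and 1 with a pseudocount of 0.1, 1 with all genes above 0, 5 after median-ratio scaling, 1 with no trend, 5 with voom and 1 to 2 with 1 library left out (1 without WT replicate 1, Hemgn-/- replicate 1 or Hemgn-/- replicate 3). The cause was not tested. Over all genes, voom called 720 higher and 331 lower, against 600 and 287 for limma on FPKM, and no trend left 237 and 153. The median log2 difference of all genes was 0.09, 0.01 after median-ratio scaling and 0.16 at the same FPKM total. Replicate numbers are shared between the groups, but same-numbered libraries did not deviate together (correlations -0.043, -0.0094 and 0.011). Libraries with different numbers correlated at -0.029 to 0.036. These values cannot settle whether same-numbered libraries were handled together, which the sources used here do not say. With the replicate block the counts were 3 higher for the SOCS, PIM and STAT genes and 11 higher for the other pathway genes. After median-ratio scaling the log2 difference was -0.0692 for Socs6 and -0.0045 for Ifnar2. Leaving out each library gave -0.136 to 0.0955 for Socs6 (negative when WT replicate 3 or Hemgn-/- replicate 1 was left out, -0.0393 and -0.136) and -0.0232 to 0.191 for Ifnar2 (negative when WT replicate 3 was left out). Among 588 values of single genes under alternatives, 472 kept their side of the threshold, 96 lost a call, 15 gained one and 5 changed sign. At this depth Socs2 (67 to 133 fragments) and Cish (283 to 572) rest on the fewest fragments.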
